A study of Mus musculus with 16 samples.

Results

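The mitochondrial ribosomal proteins are the nuclear-encoded proteins of the ribosome that works inside mitochondria. They were taken as the protein-coding genes whose symbol begins with Mrpl (large subunit) or Mrps (small subunit) followed by a digit, with at least 160 fragments summed over all libraries. Of 78 such symbols, 77 met the minimum, out of 55471 genes counted. The gene left out, Mrpl53, had 14 fragments, and 88.0% of its exon bases are shared with the gene Gm42688 on the same strand. The member with the fewest fragments, Mrps6, had 3592. All 77 passed the expression filter that left 17046 genes for testing.

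RNA was sequenced from the livers of 16 mice, 4 in each of 4 groups. Aged controls (102 weeks) and young adults (12 weeks) had no antibiotics, and the aged groups PAM I and PAM II (both 102 weeks) had antibiotics. The title of the study places the exposure in early life. Strain, sex, drug, dose and the meaning of the group names are not given in the sources used here, and each library is treated as 1 mouse. The free-text description of the young libraries calls them aged, so their age and group fields were used. Where nothing shows that libraries came from separate animals, p-values measure only the spread between these libraries.

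Mitochondrial ribosomes descend from bacterial ribosomes and translate the few proteins encoded on mitochondrial DNA, all of them subunits of the respiratory chain and ATP synthase. Their ribosomal RNAs come from mitochondrial DNA, whereas their proteins are made in the cytosol and imported. Many of these proteins have a bacterial counterpart and others exist in mitochondria only. Hepatocytes are rich in mitochondria, and several antibacterial drugs that bind bacterial ribosomes can also bind mitochondrial ones.

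The symbols do not always give the place in the ribosome. Mrps30 and Mrps18a, named as small-subunit proteins, sit in the large subunit, and Mrps36 is a component of the 2-oxoglutarate dehydrogenase complex rather than of the ribosome. By position, 50 members belonged to the large subunit and 26 to the small subunit, with 46 having a bacterial counterpart and 30 found in mitochondria only.

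Fragments assigned to genes ranged from 36968993 to 52090914 per library. The summed level of 6 hepatocyte markers was 58761 to 117300 CPM (counts scaled to library size) over the 16 libraries, and none of the 6 was at 0 in all libraries of a group. Skeletal muscle transcripts set libraries apart within groups. The summed CPM of 12 muscle markers ran from 0.789 to 14.6 over the aged controls and from 1.10 to 131 over the young livers. It ran from 2.05 to 49.2 over PAM I and from 1.75 to 126 over PAM II, so all groups overlapped, and no muscle marker was at 0 in all libraries of a group. Among aged livers, control 2, PAM I 1 and 2 and PAM II 2, 3 and 4 were the libraries of high muscle transcripts, and results are given with and without those 6. Leaving them out keeps 3 aged controls, 2 PAM I livers and 1 PAM II liver. The lone PAM II liver is then assumed to vary like the other groups. The young livers all stay in, and the mean log2 CPM of the muscle markers was 3.08, -0.40 and 0.97 in young 1, 3 and 4. The aged livers kept read -3.19 or lower, so against young livers this fit does not balance muscle transcripts. Young library 1 also stood apart, with 13.9% of its fragments from mitochondrial DNA against 4.14% to 9.01% in the other libraries.

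The upstream sequences of 4 members are shown because these genes carry the highest levels or the smallest p-values described below, and because they hold motifs often found at promoters of this family. Each is the 200 bases before the RefSeq transcription start (build GRCm38.p6), 5′ to 3′ on the gene's strand, in lower case with the motif match in capitals. Mrpl34 (chr8:71464726-71464925, plus strand) and Mrps18a (chr17:46110804-46111003, plus strand) carry the core of the ETS-family motif bound by GABP, CCGGAAG. Mrpl12 (chr11:120484437-120484636, plus strand) and Mrps21 (chr3:95871515-95871714, minus strand) carry the motif of nuclear respiratory factor 1, which reads GCGC, any base, then TGCGC.
Mrpl34: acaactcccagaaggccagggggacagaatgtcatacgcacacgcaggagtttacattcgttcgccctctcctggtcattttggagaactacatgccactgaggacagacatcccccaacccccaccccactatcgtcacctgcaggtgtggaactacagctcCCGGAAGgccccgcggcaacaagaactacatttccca
Mrps18a: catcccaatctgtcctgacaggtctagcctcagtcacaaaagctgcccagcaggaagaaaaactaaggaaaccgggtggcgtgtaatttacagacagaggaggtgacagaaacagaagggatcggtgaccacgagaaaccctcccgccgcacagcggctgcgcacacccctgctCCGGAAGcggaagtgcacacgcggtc
Mrpl12: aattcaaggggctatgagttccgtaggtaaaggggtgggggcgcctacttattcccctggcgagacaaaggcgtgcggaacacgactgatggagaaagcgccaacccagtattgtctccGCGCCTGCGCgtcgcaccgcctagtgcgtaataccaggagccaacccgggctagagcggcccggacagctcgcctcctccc
Mrps21: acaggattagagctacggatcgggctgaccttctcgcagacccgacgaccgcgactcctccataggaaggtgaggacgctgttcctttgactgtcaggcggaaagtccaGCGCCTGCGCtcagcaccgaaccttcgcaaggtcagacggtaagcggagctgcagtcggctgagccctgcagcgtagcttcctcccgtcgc

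The motif lies 37 to 31 bases before the start in Mrpl34, 26 to 20 in Mrps18a, 81 to 72 in Mrpl12 and 91 to 82 in Mrps21. RefSeq windows of 300 bases around the start (250 before, 50 after) were found for 68 of the 77 members, and both strands were searched. A gene with several RefSeq starts was counted if any of its windows held the motif. The ETS core was present in 36.8% of the 68 members and in 18.6% of the 10850 tested protein-coding genes with a window. The nuclear respiratory factor 1 motif was present in 19.1% against 10.7%. The YY1 motif, AAGATGGCG, was present in 11.8% against 3.27%. Any of the 3 was present in 40 of 68 members (58.8%) against 29.0%. A TATA box (TATAAA) was present in 7.35% against 9.57%, and the median GC content was 58.0% against 60.3%. The search asked only for these letters and says nothing of binding in these livers.

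Some members shared their start region with a neighbour. For 18 of the 77 (23.4%), another protein-coding gene on the opposite strand began within 1000 bases upstream of the member's start. This held for 9.51% of the 13848 protein-coding genes tested. Neighbours that began downstream of the member's start were not counted. Mrps11 and Mrpl46, which share 173 exon bases on opposite strands, are not among the 18. Mrps12, a protein of the decoding centre, begins 172 bases from Sars2, the mitochondrial seryl-tRNA synthetase. Mrps5 begins 128 bases from Zfp661, and Mrpl49 begins 59 bases from Fau.

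Levels per exon length spanned a wide range across the family. On the scale of CPM per kilobase of exon, averaged over the 4 group means, the highest member was Mrpl12 at 77.97, the protein of the stalk that recruits translation factors. It was followed by Mrpl34 at 57.8, Mrpl14 at 54.9, Mrps21 at 46.7 and Mrpl52 at 46.4. The median member stood at 11.3. The lowest were Mrps25 at 1.93, Mrpl33 at 1.99, Mrpl47 at 2.14, Mrpl3 at 2.31 and Mrpl19 at 2.32. These lengths take every annotated exon of a gene, so members with long or overlapping annotated exons read lower per base.

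**Figure D1:**
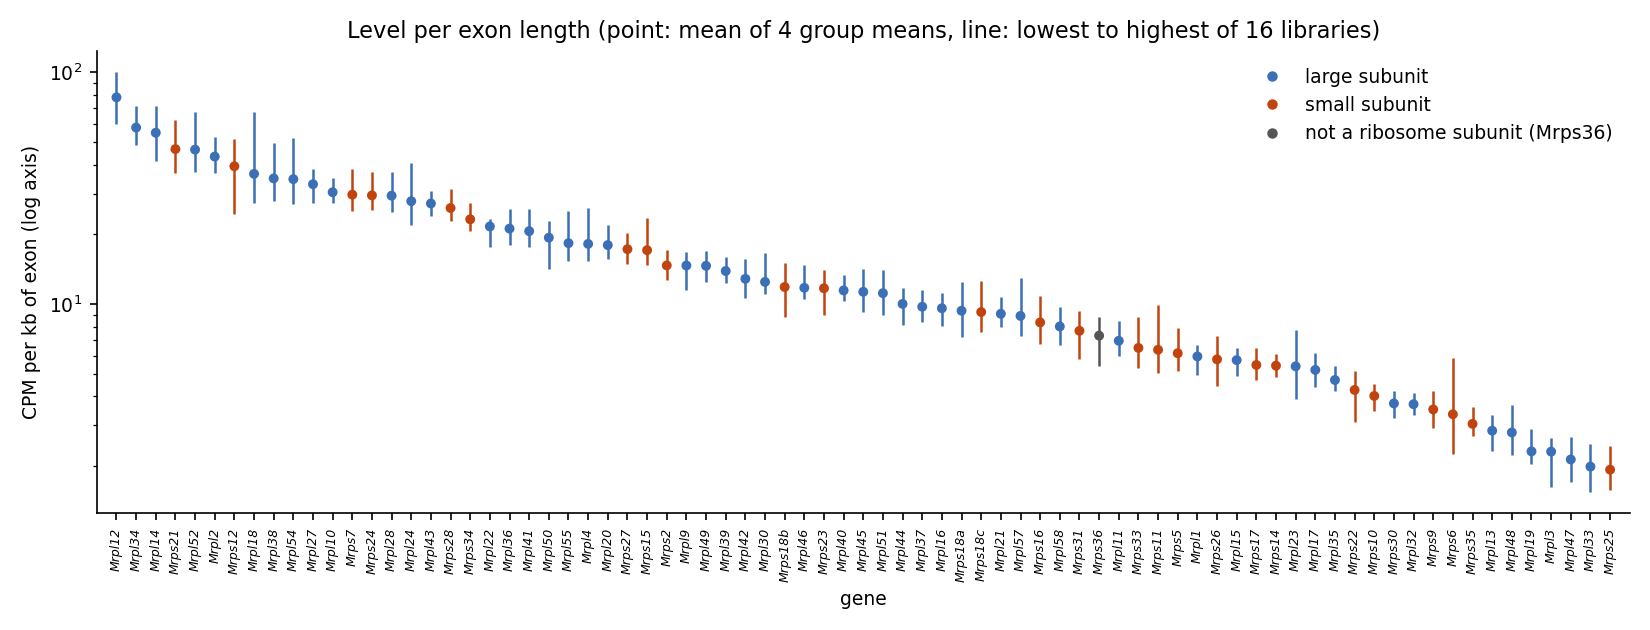
CPM per kilobase of exon on a log axis for the 77 members, ordered by level, with the mean of 4 group means (point) and the lowest to highest of 16 libraries (line). Blue is the large subunit, red the small subunit and grey Mrps36; both subunits occur along the whole range, from Mrpl12 at 77.97 to Mrps25 at 1.93.

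Members varied little between libraries of a group. The median within-group SD of log2 CPM was 0.13 over members and 0.32 over all genes tested, and each of the 77 members lay below that overall median. The members and all genes were not matched for level, and the part of level in this difference was not tested. The most variable was Mrpl23 at 0.28, followed by Mrpl18 at 0.27 and Mrps6 at 0.25. The annotation holds a pseudogene named after Mrpl23, Mrpl23-ps1, so its counts are uncertain if reads were split between them.

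The mean log2 CPM of the 77 members was 4.68 ± 0.03 in aged controls, 4.89 ± 0.07 in PAM I, 4.72 ± 0.04 in PAM II and 4.86 ± 0.11 in young livers (SD, n = 4 each). The 4 aged controls read 4.66, 4.70, 4.65 and 4.70, and the 4 PAM I livers 4.82, 4.85, 4.90 and 4.98. PAM II livers read 4.75, 4.74, 4.66 and 4.71, and young livers 4.98, 4.79, 4.74 and 4.91. Aged controls lay below every PAM I and every young library, and PAM II overlapped with the aged controls and with the young livers. As a plain share of all fragments the ranges of aged controls overlapped those of the others, with members taking 0.216% to 0.258% there. The PAM I libraries gave 0.246% to 0.291%, young livers 0.230% to 0.255%, and PAM II libraries 0.222% to 0.268%. Aged controls had the lowest of the 4 group means for 57 members, PAM II for 17 and young livers for 3. PAM I had the highest for 48 and young livers for 29.

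**Figure D2:**
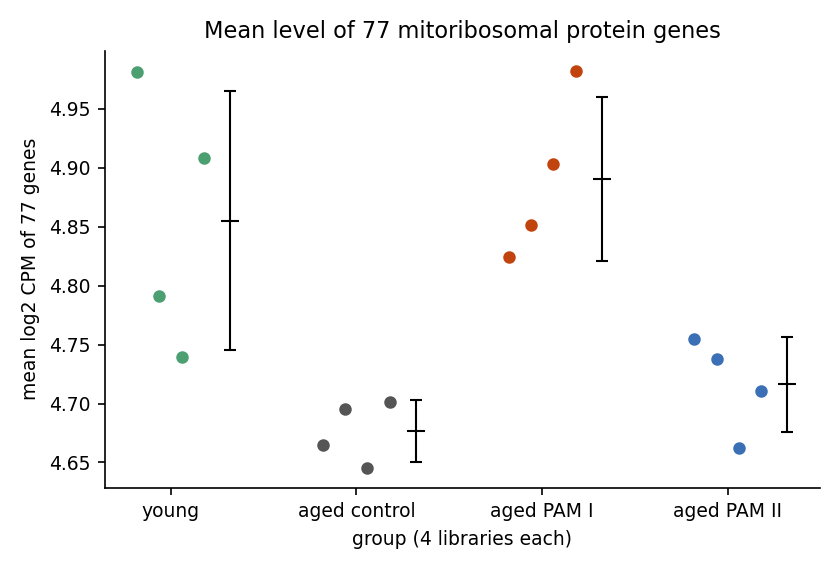
Mean log2 CPM of the 77 members in each of the 16 libraries by group, with the group mean and SD beside the points. Aged controls (4.65 to 4.70) sit below PAM I (4.82 to 4.98), and young livers spread from 4.74 to 4.98.

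With age, in mice without antibiotics, most members read lower by a small amount. In aged controls against young livers, 4 of 77 members passed an adjusted p of 0.05, all of them lower (5.19%, against 1.31% of all genes lower and 3.23% of all genes in either direction). Log2 fold changes were below 0 for 74 of the 77 (50.9% of all genes tested), with a median of -0.17 (-11.4%) against -0.01 for all genes. Before adjustment 24 members were lower at p under 0.05 (31.2%, against 8.68% of all genes). For 15 members (19.5%, against 4.44%) every aged control lay below every young liver.

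Mrpl34, a protein of the core of the large subunit, measured 43.3, 37.4, 35.4 and 39.2 CPM in young livers and 30.2, 32.9, 29.5 and 30.7 in aged controls. It was the member with the smallest adjusted p, with a log2 fold change of -0.33 ± 0.08 (SE, edgeR quasi-likelihood test, adjusted p = 0.035). The groups did not overlap.

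Mrpl38, a mitochondria-specific protein of the central protuberance of the large subunit, had a mean of 78.7 ± 5.51 CPM in aged controls and 105 ± 16.1 in young livers (SD, n = 4). Its young libraries read 127, 89.9, 96.2 and 108 CPM and its aged controls 78.8, 80.4, 71.3 and 84.5. The log2 fold change was -0.42 ± 0.11 (edgeR adjusted p = 0.0447), and young library 1 was the highest.

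Mrpl19, a large-subunit protein with a bacterial counterpart at the subunit interface, measured 15.5, 15.8, 13.5 and 13.97 CPM in young livers and 11.9, 11.3, 12.2 and 11.6 in aged controls. Its log2 fold change was -0.32 ± 0.08 (edgeR adjusted p = 0.0485). Its exons share 36.0% of their bases with Gcfc2 on the opposite strand, and although the authors counted by strand, whether the library kit kept strand is not given in the sources used here, so its counts are uncertain to that extent.

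Mrps5 is a small-subunit protein whose bacterial counterpart affects decoding accuracy, and lowering its worm counterpart is known to lengthen lifespan in nematodes. It measured 52.1, 46.2, 44.3 and 46.5 CPM in young livers and 36.3, 40.3, 38.7 and 33.8 in aged controls. The log2 fold change was -0.34 ± 0.09 (edgeR adjusted p = 0.0485). The 4 aged controls all lay below the lowest young liver.

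**Figure D3:**
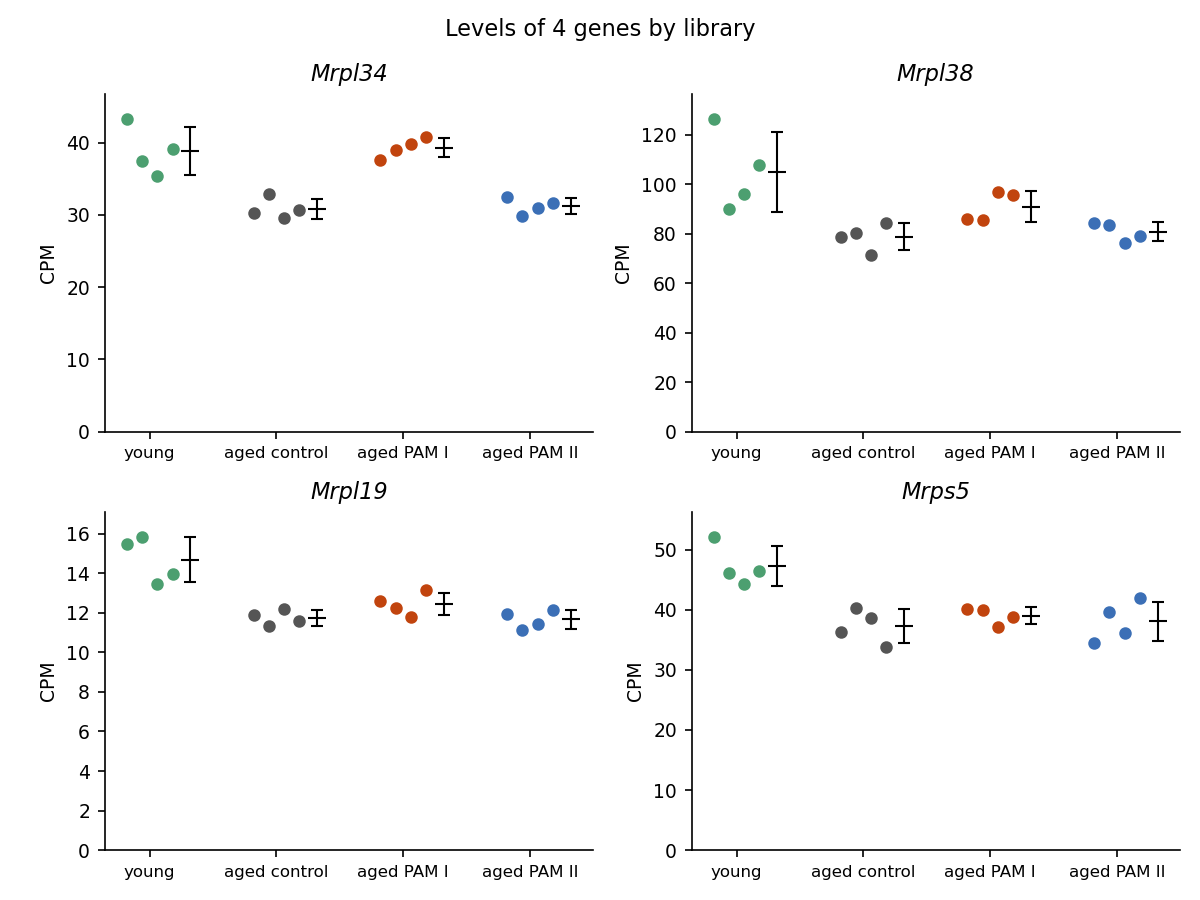
CPM of Mrpl34, Mrpl38, Mrpl19 and Mrps5 in each library by group, with the group mean and SD beside the points and the axis starting at 0. In all 4 panels the aged controls lie below the young livers; the PAM I mean lies near that of young livers for Mrpl34 (39.3 and 38.8 CPM) and near that of aged controls for Mrps5 (39.0 and 37.3 CPM).

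Both subunits and both origins had like medians in this comparison. The large subunit had a median log2 fold change of -0.17 with 3 of 50 members called, and the small subunit -0.17 with 1 of 26 called. Members with a bacterial counterpart had -0.17 (3 of 46 called) and mitochondria-only members -0.17 (1 of 30 called). The members above 0 were Mrpl50, Mrpl16 and Mrpl23, at 0.10 or less. The most negative value was that of Mrps6, -0.57 ± 0.19 (edgeR adjusted p = 0.112), followed by Mrpl18, -0.42 ± 0.18 (adjusted p = 0.224). For Mrps6, 19.9% of exon bases are shared on the same strand with Slc5a3 and Gm49711, and young library 1 alone read 9.004 CPM against 5.22 to 5.44 in the others.

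The 4 calls depended on the fit. None of the members passed when only these 2 groups were fitted, with no filter on low counts, with a muscle covariate, or without the 6 aged libraries of high muscle transcripts. None passed without aged control 1, 3 or 4 or young 1 or 4 either, and 1 passed without aged control 2 and 2 without young 2. The count at an unadjusted p under 0.05 was 10 without young 4 and 7 without the 6 high-muscle libraries. Between 67 and 76 of the 77 stayed below 0 when any 1 library was left out, and 75 without the 6. The mean log2 CPM of the 6 hepatocyte markers was 12.01 to 12.22 in aged controls and 12.44 to 12.96 in young livers, which did not overlap, whereas their summed CPM, 76015 to 112573 and 100477 to 112274, did. Summed endothelial markers (5 genes) were 77.9 to 119 CPM in aged controls and 147 to 164 in young livers, B cell markers (5 genes) 64.4 to 135 against 17.4 to 35.3, and cholangiocyte markers (5 genes) 53.5 to 141 against 30.6 to 47.1. No marker of these lists was at 0 in all libraries of a group, and the part of these differences in the result was not tested. In bulk tissue, fewer cells of a type and less RNA per cell cannot be told apart.

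In PAM I livers the family read higher than in aged controls across almost all members, although no member and no other gene passed the adjusted threshold (0 of 77, and 0% of all genes, edgeR adjusted p = 0.506 or above). Log2 fold changes were above 0 for 76 of the 77 members (52.4% of all genes), with a median of 0.21 (15.8%) against 0.02 for all genes. At an unadjusted p under 0.05, 30 members were higher (39.0%, against 3.71% of all genes) and 0 lower (5.69% of all genes). For 28 members (36.4%, against 3.07%) every PAM I liver lay above every aged control. DESeq2 called 1 member, Mrpl34, and 0.07% of all genes. The 30 members at an unadjusted p under 0.05 became 16, 20, 14 and 32 without aged control 1, 2, 3 or 4. They became 25, 26, 16 and 11 without PAM I 1, 2, 3 or 4.

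Mrpl34 had the smallest p of the family here too, with 37.6, 39.0, 39.8 and 40.8 CPM in PAM I. Its log2 fold change from aged controls was 0.35 ± 0.08 (edgeR adjusted p = 0.506). Its PAM I and young means, 39.3 ± 1.35 and 38.8 ± 3.37 CPM (SD, n = 4 each), differed by less than their spread.

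Mrps18a, a large-subunit protein of the S18 group, measured 36.9, 37.1, 38.9 and 46.1 CPM in PAM I and 28.5, 34.0, 31.1 and 26.5 in aged controls, with a log2 fold change of 0.40 ± 0.12. Its relatives in the small subunit had smaller values, 0.10 ± 0.14 for Mrps18b and 0.24 ± 0.15 for Mrps18c. Mrps18b shares 30.5% of its exon bases with Gm16279 on the opposite strand, and Mrps18c 23.2% with Gm43511 on the same strand. No gene passed the adjusted threshold in this comparison, Mrps18a included. Mrpl21 had 0.30 ± 0.08. Mrpl12, which also binds mitochondrial RNA polymerase, measured 133, 133, 118 and 154 CPM in PAM I against 108, 103, 111 and 91.5 in aged controls.

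Among the members called lower with age, Mrps5 and Mrpl19 differed little in their means between PAM I and aged controls. Mrps5 stood at 39.0 ± 1.36 CPM in PAM I against 37.3 ± 2.83 in aged controls (SD, n = 4), and Mrpl19 at 12.4 ± 0.572 against 11.7 ± 0.386. The log2 fold changes were 0.07 ± 0.09 and 0.08 ± 0.08. Mrpl18 was the only member below 0, at -0.05 ± 0.18. The aged controls enter both comparisons, so a gene that is low in those 4 libraries reads lower against young and higher in PAM I from the same values.

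**Figure D4:**
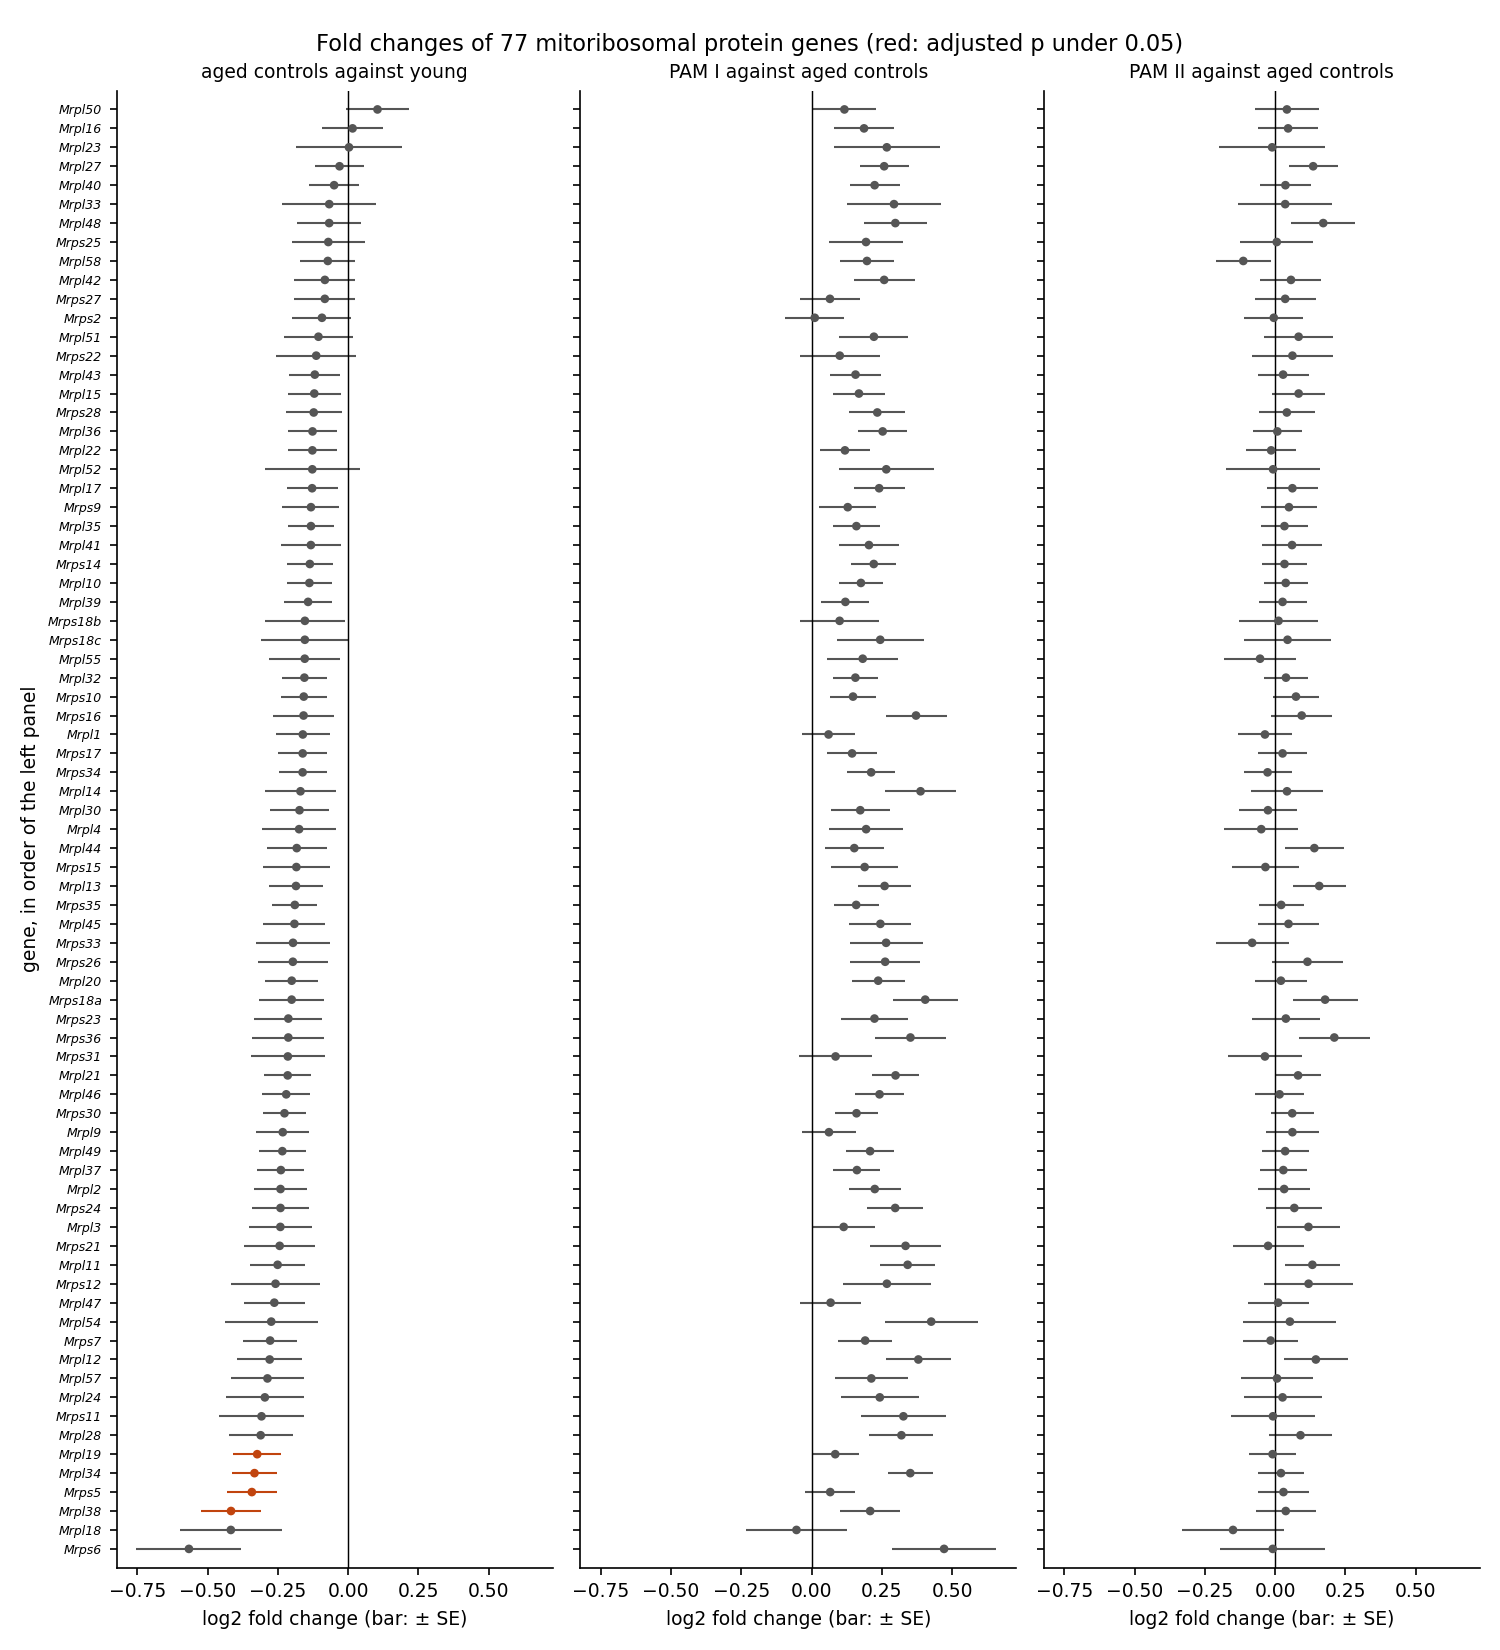
Log2 fold change ± SE of the 77 members in 3 comparisons, ordered by the left panel, with members past an adjusted p of 0.05 in red. Values lie left of 0 for 74 members in aged controls against young, right of 0 for 76 in PAM I against aged controls, and on both sides in PAM II against aged controls (58 above 0).

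The difference between PAM I and aged controls moved with mRNA length over the whole transcriptome. Members are short, with a median mRNA of 1316 bases against 2959 for tested protein-coding genes. Among other protein-coding genes, the median log2 fold change of PAM I against aged controls was 0.24 for mRNAs under 1000 bases (86.7% of 836 genes above 0), 0.15 for 1000 to under 2000, 0.01 for 2000 to under 4000 and -0.18 for 4000 or more. Members in the same classes had medians of 0.26 (24 genes), 0.19 (28), 0.16 (16) and 0.17 (9).

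With offsets that take out each library's trend on mRNA length, chosen after seeing the data, the members' median was 0.11, with 68 of 77 above 0 and 16 at an unadjusted p under 0.05. In aged controls against young, the medians of other genes ran from -0.11 in the shortest class to 0.02 in the longest, and those of the members lay between -0.21 and -0.16 in all 4 classes. With the same offsets the members' median there was -0.15, with 71 of 77 below 0 and 2 members called, Mrpl38 and Mrps5 (3.65% of all genes). What lies behind the length trend was not tested.

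**Figure D5:**
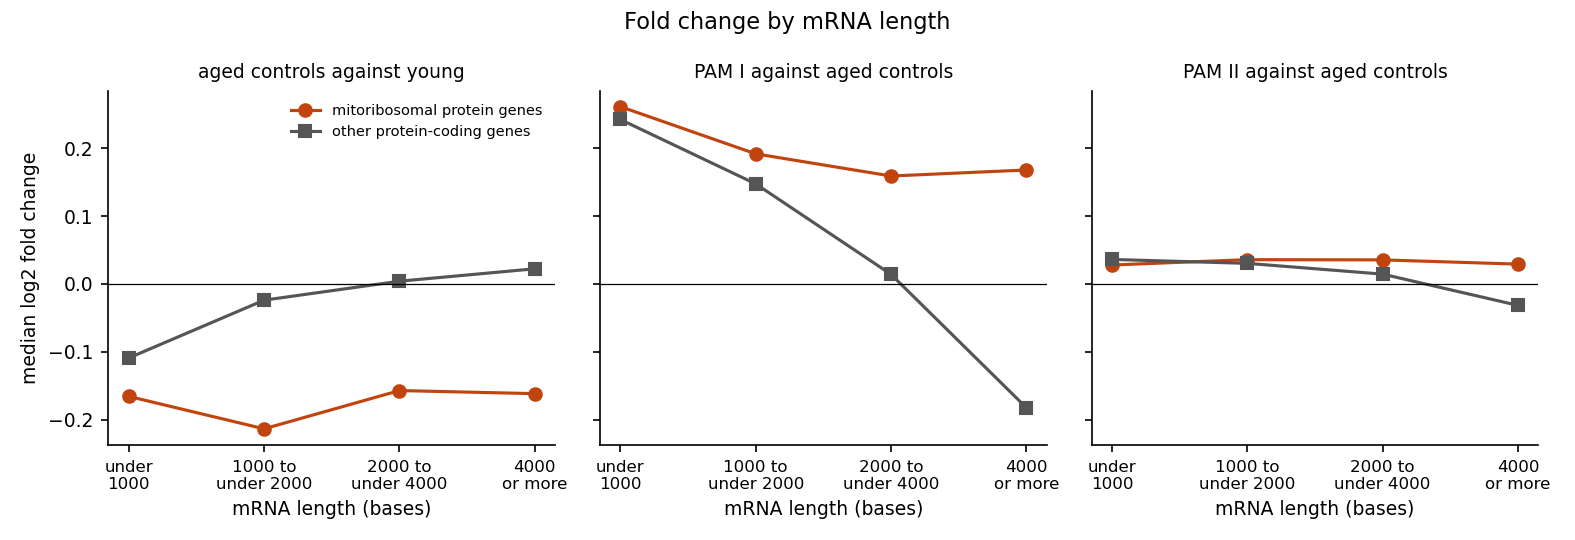
Median log2 fold change by mRNA length class for the members (red circles) and other protein-coding genes (grey squares) in 3 comparisons. In PAM I against aged controls the members and other genes are close under 1000 bases (0.26 and 0.24) and apart at 4000 bases or more (0.17 and -0.18).

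The length trend also differed among libraries of a group. The deviation of genes under 1000 bases minus that of genes of 4000 or more was -0.15, -0.24, -0.47 and 0.21 log2 in the 4 aged controls and 0.05, 0.13, 0.42 and 0.52 in the 4 PAM I livers. PAM I 4, the library with the highest value, also had the highest members' mean, and without it the median fold change was 0.16 with 76 of 77 above 0. Without the 6 libraries of high muscle transcripts the median was 0.25 with 73 above 0. Fewer members than with all libraries then had an unadjusted p under 0.05. Summed B cell markers were 140 to 565 CPM in PAM I and 64.4 to 135 in aged controls. No B cell marker was at 0 in all libraries of a group. As mean log2 CPM these markers overlapped, at 2.60 to 4.42 in PAM I and 1.56 to 3.29 in aged controls. Their part in the result was not tested.

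Between PAM II livers and aged controls the differences of the members were small. None of the 77 members and no gene passed (0%), none had an unadjusted p under 0.05 (1.23% of all genes were higher at that level and 1.5% lower), and DESeq2 called 0. The median log2 fold change was 0.04 with 58 of 77 above 0 (51.4% of all genes). The smallest p-values belonged to Mrps36, at 0.21 ± 0.13, Mrpl13, at 0.16 ± 0.09, and Mrpl27, a protein near the peptidyl transferase centre, at 0.13 ± 0.09 (edgeR adjusted p = 1 for each). For 2 members, Mrpl11 and Mrpl44 (2.6%, against 0.81% of all genes), every PAM II liver lay above every aged control. Mrpl11 was picked out after its values were seen. Without the 6 high-muscle libraries the median was 0.05 with 52 above 0 and 0 members called, while 30 genes were called higher and 2 lower.

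Against PAM I, the PAM II livers read lower across the family, again with no member or other gene past the adjusted threshold (0 of 77 and 0%). The median log2 fold change was -0.18, 76 of 77 members were below 0 (49.1% of all genes), and 18 were lower at an unadjusted p under 0.05 (23.4%, against 2.29%). For 23 members (29.9%, against 2.9%) the PAM II livers all lay below the PAM I livers. DESeq2 called 0. The count of 18 was 11 without PAM I 2, 10 without PAM I 3, 6 without PAM I 4, 7 without PAM II 3, 9 without PAM II 4 and 0 without the 6 high-muscle libraries, when the median was -0.20 with 71 below 0.

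Mrpl34 had -0.33 ± 0.08 in this comparison, with 32.5, 29.9, 31.0 and 31.7 CPM in PAM II. Mrpl58, a peptidyl-tRNA hydrolase that frees stalled mitochondrial ribosomes, measured 25.9, 24.4, 22.2 and 23.4 CPM in PAM II and 28.2, 25.99, 32.6 and 32.04 in PAM I, a log2 fold change of -0.31 ± 0.10. Mrps21 had -0.36 ± 0.13 (edgeR adjusted p = 0.88 for all 3). The highest PAM II library of each of the 3 lay below the lowest PAM I library. The length trend was present here as well, with other genes at -0.22 under 1000 bases and 0.16 at 4000 or more, and with length offsets the members' median was -0.09 with 63 below 0.

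Age and antibiotic group differ together when the antibiotic groups are set against young livers, so their parts cannot be told apart. In PAM I against young, 0 of 77 members were called (8.22% of all genes), and the median log2 fold change was 0.03 with 47 above 0 (48% of all genes). That median was not stable in sign or size. It was -0.01 with 34 above 0 without PAM I 4, and 0.07 with 53 above 0 without the 6 high-muscle libraries. Under upper-quartile scaling it was 0.12 with 67 above 0, but the median of all genes also moved, from -0.02 in the main fit to 0.07. The smallest p-values were those of Mrps5 (-0.28 ± 0.09, edgeR adjusted p = 0.0649), Mrpl19 (-0.24 ± 0.08, adjusted p = 0.0848) and Mrpl18 (-0.47 ± 0.18, adjusted p = 0.11). Mrpl18, a large-subunit protein with a bacterial counterpart, read 94.5, 43.8, 55.4 and 65.8 CPM in young livers and 43.9, 50.1, 49.8 and 43.3 in PAM I, and the ranges overlapped. With length offsets 2 members were called (7.38% of all genes), both lower, and the median was -0.05. Without young 1 the only member called was Mrpl23, higher, and without young 2 it was Mrpl18, lower.

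In PAM II against young, 2 of 77 members were called, both lower (2.6%, against 5.19% of all genes called in either direction and 2.01% called lower). They were Mrpl19 (-0.33 ± 0.08, edgeR adjusted p = 0.0327) and Mrpl34 (-0.31 ± 0.08, adjusted p = 0.0347). The median log2 fold change was -0.14 (-8.94%), and 73 of 77 lay below 0 (52.2% of all genes). Neither call held with no filter on low counts, or without any of PAM II 1, 2 or 3 or young 1 or 4, when 0 members passed, whereas DESeq2 called 7 members and 9.82% of all genes. Without the 6 high-muscle libraries 0 members passed, and the median was -0.12 with 56 below 0. Mean log2 CPM of hepatocyte markers was 12.05 to 12.29 in PAM I and 11.95 to 12.41 in PAM II, below the 12.44 to 12.96 of young livers. Summed B cell markers were 140 to 565 CPM in PAM I and 116 to 242 in PAM II against 17.4 to 35.3 in young livers, and the part of these markers in the results was not tested.

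The other members chosen by name did not pass in any of the 6 comparisons. Mrps12 had -0.26 ± 0.16 in aged controls against young and 0.27 ± 0.16 in PAM I against aged controls. Mrpl44 and Mrps22, whose human counterparts are mutated in mitochondrial cardiomyopathy, had -0.18 ± 0.11 and -0.11 ± 0.14, then 0.15 ± 0.11 and 0.10 ± 0.14. Mrps34, mutated in Leigh syndrome, had -0.16 ± 0.09 and 0.21 ± 0.09, but 37.0% of its exon bases are shared with Nme3 on the same strand. A further limit is that 63.4% are shared with Mapk8ip3 on the opposite strand. Mrpl41 had -0.13 ± 0.11 and 0.20 ± 0.11, and Mrps30 -0.23 ± 0.08 and 0.16 ± 0.08. Mrps36, outside the ribosome, had -0.21 ± 0.13 and 0.35 ± 0.13.

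The genes that work with this family were read from lists written from general knowledge. Of 35 factors for ribosome assembly and rRNA processing, 3 were lower in aged controls than in young livers, where 1.31% of all genes were lower, and 0 were higher: Rpusd3 (-0.50 ± 0.11, edgeR adjusted p = 0.0214), Mrm3, a methyltransferase of the large mitochondrial rRNA (-0.49 ± 0.12, adjusted p = 0.0428), and Ngrn (-0.37 ± 0.10, adjusted p = 0.0485). Their list median was -0.17, and that of 5 further ribosome proteins with other symbols was -0.19. None of 15 translation factors or 20 aminoacyl-tRNA synthetases was called, with medians of -0.14 and -0.17.

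The mitochondrial rRNAs themselves, mt-Rnr1 and mt-Rnr2, had -1.01 ± 0.30 and -0.74 ± 0.29 in that comparison (edgeR adjusted p = 0.0779 and 0.181). Their mean log2 CPM was 9.14 to 10.04 in aged controls and 9.70 to 11.15 in young livers, so the groups overlapped. The highest was young library 1, which also had the largest share of fragments from mitochondrial DNA. The 73 nuclear subunits of the respiratory chain and ATP synthase had a median of -0.19. The 83 cytosolic ribosomal protein genes had -0.17, with 0 called in both lists. In PAM I against aged controls no gene of these lists was called. The medians were 0.24 for the respiratory chain and ATP synthase subunits and 0.20 for cytosolic ribosomal proteins. They were 0.14 for assembly factors, 0.01 for translation factors and 0.06 for aminoacyl-tRNA synthetases. The members' own median was 0.21, between those of the cytosolic ribosomal proteins and of the respiratory chain and ATP synthase subunits. Differences between lists were not tested.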

How the data were processed

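The authors deposited 1 table of raw counts for each of the 16 liver libraries, giving whole fragments for every gene, not normalized. Per the submitters' processing notes, reads were processed with Trimmomatic 0.38, HISAT2 2.1.0 (build mm10) and featureCounts 1.5.0-p2. Per the file headers, the authors counted exons of Ensembl release 99 with strand setting 1. Symbols and positions came from GENCODE M21 (GRCm38), which gave 55230 of 55471 identifiers a symbol.

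Counts were tested with edgeR 4.0.16 in R 4.3.3: filterByExpr with the 4 groups, TMM scaling, 1 quasi-likelihood model of all 16 libraries with robust dispersions, and Benjamini-Hochberg adjustment over all 17046 genes in each of 6 contrasts. The biological coefficient of variation was 27.3%. The SE of a log2 fold change was derived as its absolute value divided by the square root of the quasi-likelihood F statistic. Log2 CPM used a prior count of 2. No libraries were copies: the closest pair, PAM I 1 and 2, differed by a root mean square of 0.469 in log2 CPM. Alternatives included DESeq2 1.42.0, limma 3.58.1 (voom with quality weights), other scalings and filters, leaving out libraries, and length offsets. The fit was tested on simulated data. Named members were those called or, where none was, the 3 with the smallest p, the 5 highest and 5 lowest per length, and 14 chosen by name. The members, lists and tests were chosen with earlier results of these data known. Counting error alone, taken as Poisson at a member's mean count, had an SD of 0.02 to 0.10 on the log2 scale (median 0.04). For Mrpl19 it was 0.06, close to its within-group SD of 0.07.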

Additional observations from a re-analysis of the deposited data

Results flagged for a closer look

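Of 116 sets of 4 libraries examined, 5 held a library far from the other 3, and chance gives about 5%. For Mrps6, young library 1 read 3.18 log2 CPM against 2.40 to 2.46 in the others, which bears on its low value in aged controls against young. For Mrps18b, aged control 4 read 4.28 against 4.64 to 4.66. For Mrps12, young library 3 read 5.27 against 5.49 to 5.52. For Mrpl14, PAM II library 3 read 5.46 against 5.62 to 5.64, and for Mrpl52, PAM II library 1 read 5.87 against 5.43 to 5.48.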

How the results depend on the processing

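In aged controls against young, 4 members were called, and the count was 2 with RLE scaling, without genes of mitochondrial DNA, with limma voom or with length offsets, 1 with upper-quartile scaling, and 0 with no filter, with only the groups compared, with the muscle covariate, without aged control 4 and young 1 together, or without the 6 libraries of high muscle transcripts. Of all 17046 genes, 330 were called higher and 211 lower with RLE scaling. The counts were 357 and 169 with upper-quartile scaling, and 261 and 242 with limma voom. Without genes of mitochondrial DNA they were 348 and 207 of 17041. Leaving out 1 library gave 0 to 3 members called, with medians of -0.22 to -0.14. In PAM I against aged controls the count was 0, and 1 with DESeq2; leaving out 1 library gave 0, with medians of 0.16 to 0.22. In PAM I against young the count of members was 0. It was 2 with DESeq2 or length offsets, 1 with limma voom and 3 without aged control 4 and young 1. Leaving out 1 library gave 0 to 1, with medians of -0.01 to 0.06. Of all genes tested, DESeq2 called 1509 higher and 1056 lower of 19410. Length offsets gave 781 higher and 477 lower of 17046, and limma voom 1373 and 1254. Without aged control 4 and young 1, 963 were higher and 1112 lower of 17181. In PAM II against young the count of members was 2. It was 0 with upper-quartile scaling, no filter or only the groups compared, 7 with DESeq2, 8 with limma voom and 5 with the muscle covariate. Leaving out 1 library gave 0 to 3 members. Of all genes tested, DESeq2 called 1167 higher and 681 lower of 18815. Limma voom called 840 higher and 712 lower of 17046, and the muscle covariate fit 767 and 483. The other 2 comparisons had 0 calls in every fit run. The causes of these moves were not tested. No paired analysis was possible because the labels give no replicate numbers shared between groups.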

Other observations

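Of 23 genes of the mitochondrial stress response, 2 were called in PAM I against young livers, close to the share of all genes called (8.22%). The list had a median log2 fold change of 0.01 there, with 13 genes above 0 and 10 below. Fgf21, a hormone released by the stressed liver, had a log2 fold change of 2.62 ± 0.57 (edgeR adjusted p = 0.0144), and Gdf15, a circulating signal of mitochondrial stress, had 1.67 ± 0.43 (adjusted p = 0.0289). None of the 23 was called in the other 5 comparisons. Against young livers, Fgf21 had 1.66 ± 0.56 in aged controls (adjusted p = 0.119) and 1.87 ± 0.56 in PAM II (adjusted p = 0.0649), and Gdf15 had 1.18 ± 0.42 in PAM II (adjusted p = 0.114). From aged controls to PAM I, Gdf15 had 0.98 ± 0.42 (adjusted p = 0.514). Of 19 genes of mitochondrial DNA transcription and RNA stability, only Mterf2 was called in PAM I and in PAM II against young livers. All genes were called at 8.22% and 5.19% there. Mterf2 had 0.84 ± 0.18 in PAM I and 0.85 ± 0.18 in PAM II (edgeR adjusted p = 0.0115 and 0.0126). In PAM I, 1 of 35 assembly factors, 1 of 15 translation factors and 1 of 20 aminoacyl-tRNA synthetases were called, all lower. In PAM II, 2 assembly factors and 1 translation factor were called, all lower.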
